A study of Arabidopsis thaliana with 48 samples.

Results

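Transcript levels in dark-grown Arabidopsis thaliana seedlings 4 h after a short pulse of UV-A light were compared with those of seedlings left in darkness. The comparison holds 6 of the study's 48 Affymetrix ATH1 arrays, 3 of each group, chosen by the treatment and harvest codes of the array titles and by no measured value. The ATH1 array carries 22810 probe sets, sets of short probes that each report the transcripts of a gene or of a few close copies. After 64 control probe sets were left out, 22746 remained, and 15777 of these passed a filter on dim signals and were tested.

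The UV-A seedlings received 5 min of light at 7 W per m2, from tubes with their emission peak at 310 nm behind a filter whose transmission is half-maximal at 327 nm, and then spent 4 h in darkness. The dark seedlings had 4 h more of complete darkness. Both groups were of the accession Col-0, with no transgene or mutation named, and were grown on agar plates for 94 h in darkness at 22 °C. Before that the seeds were kept at 8 °C for 48 h and given 2 h of light to induce germination, red light except for dark replicate 1, whose label gives green light. The tissue is labelled as mostly hypocotyls and cotyledons of whole plates of seedlings. Further groups of 3 arrays served as comparisons: a red pulse of 1 min (50 µmol per m2 and s, peak at 650 nm) followed by 4 h of darkness, a UV-A/B pulse of 5 min followed by 4 h of darkness, and a UV-A pulse with its dark group harvested at 45 min. For the UV-A/B arrays at 4 h the labels give no irradiance or filter. The labels do not say whether replicates came from separate cultures. Each p-value and SE reflects only how far arrays scatter within groups, with the spread of a probe set estimated over all 16 groups of the study. That scatter may be technical.

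A seedling grown in darkness elongates its hypocotyl, keeps its cotyledons closed and holds its plastids as etioplasts without a working photosynthetic apparatus. Light starts de-etiolation through phytochromes, which respond to red and far-red light and also absorb in the UV-A, and through cryptochromes and phototropins, which absorb blue and UV-A light. UV-B light is perceived by the photoreceptor UVR8, and the transcription factors HY5 and HYH act downstream of several of these receptors. Typical targets in the seedling are nuclear genes of photosynthesis, genes of flavonoid synthesis, clock genes, and auxin and cell wall genes of the elongating hypocotyl.

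The median signal of the 6 arrays lay between 39.1 and 42.6. Over the tested probe sets the correlation of log2 signals was 0.955 to 0.980 between arrays of the same group and 0.947 to 0.967 between a UV-A and a dark array, and these ranges overlapped. Of 4 measured genes of shoots and cotyledons, the leaf polarity gene YAB3 had signals of 62.7, 88.4 and 35.2 after UV-A and 56.2, 66.5 and 62.8 in darkness. EXPA18, an expansin of root hairs, had 28.8, 26.6 and 47.9 after UV-A and 27.9, 31.4 and 35.2 in darkness, close to the level of the filter, the 40th percentile of each array (25.7 to 27.9 in these 6). PYK10, a beta-glucosidase of roots and hypocotyls, had 3175.5, 3179.4 and 3785.7 after UV-A and 3313.6, 3492.8 and 3146.6 in darkness. None of the 4 shoot and 2 root genes passed the test.

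Transcript levels of nuclear photosystem genes, Rubisco activase, a thionin and the methionine sulfoxide reductase MSRB6 were higher 4 h after the 5 min UV-A pulse. Those of an oleosin, isocitrate lyase, the expansin EXPA9 and the clock genes GI and COR27 were lower. The falls of isocitrate lyase, GI and COR27 did not pass the test without any one of 4, 3 and 2 of the 6 arrays, respectively. The rise of the photosystem gene PSBY did not pass without any one of 3. In limma's linear model with Benjamini-Hochberg adjustment, 742 of the 15777 probe sets passed an adjusted p of 0.05 (4.7%), 402 of them higher (2.55%) and 340 lower (2.16%) after UV-A. Without adjustment, 2606 had a p under 0.05. Large differences were mostly rises: 147 of the called probe sets rose by more than 1 on the log2 scale and 23 fell by more than 1, while the median size of a called difference was 0.645. The signals of the 3 UV-A arrays lay wholly above those of the 3 dark arrays in 396 of the 402 rises and wholly below them in 336 of the 340 falls. Over all tested probe sets, 1614 (10.2%) had the UV-A arrays wholly above and 1753 (11.1%) wholly below. The called probe sets were picked on these same 6 arrays, so their separation largely follows from the calls and adds no separate evidence. Of the 8612 tested genes that a probe set names singly, 168 rose (1.95%) and 165 fell (1.92%), with a median difference of -0.0016 over all of them. The number of calls depended on single arrays: it was 474 without dark replicate 1 and 463 without dark replicate 3. In whole seedlings, fewer cells of a type and less RNA per cell cannot be told apart.

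Nuclear genes for subunits of the photosynthetic machinery were the gene list with the largest share of rises among lists of more than 2 measured genes. Of 6 measured members, 5 rose and none fell, with a median log2 difference of 1.26. Lists and members were chosen with earlier results of these data known, so the rank only describes these lists. They are also partial, as 8730 probe sets are not in the gene table used. PSAE-1 (AT4G28750), the E subunit of photosystem I, had signals of 940.0, 1075.1 and 627.8 after UV-A and 178.0, 228.0 and 155.1 in darkness. Every UV-A array stood far above every dark array, with UV-A replicate 3 the lowest of the UV-A arrays (log2 difference 2.21 ± 0.36 SE, adjusted p = 9.25e-05, n = 3 each). PSAN (AT5G64040), the N subunit of photosystem I, had 542.6, 680.4 and 417.1 after UV-A and 189.6, 224.6 and 177.3 in darkness (1.45 ± 0.23 SE, adjusted p = 4.75e-05). PSBW (AT2G30570), a small subunit of photosystem II, had 1176.7, 1308.0 and 897.4 after UV-A and 452.7, 436.9 and 401.5 in darkness (1.37 ± 0.21 SE, adjusted p = 3.64e-05). In these genes the groups did not overlap, and the 3 dark arrays lay closer together than the 3 UV-A arrays. PSBY (AT1G67740), another photosystem II subunit, had 465.3, 783.6 and 323.7 after UV-A and 195.0, 250.6 and 219.9 in darkness. Its rise of 1.15 (adjusted p = 0.0171) did not pass without dark replicate 1 (0.0903), UV-A replicate 2 (0.194) or dark replicate 3 (0.0587). ATPC1 (AT4G04640), the gamma subunit of the chloroplast ATP synthase, rose by 0.84 (adjusted p = 0.0111) but not without dark replicate 1 (0.0527) or UV-A replicate 2 (0.0946), and its close relative ATPC2 (AT1G15700) had a log2 difference of -0.29 and was not called.

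**Figure D1:**
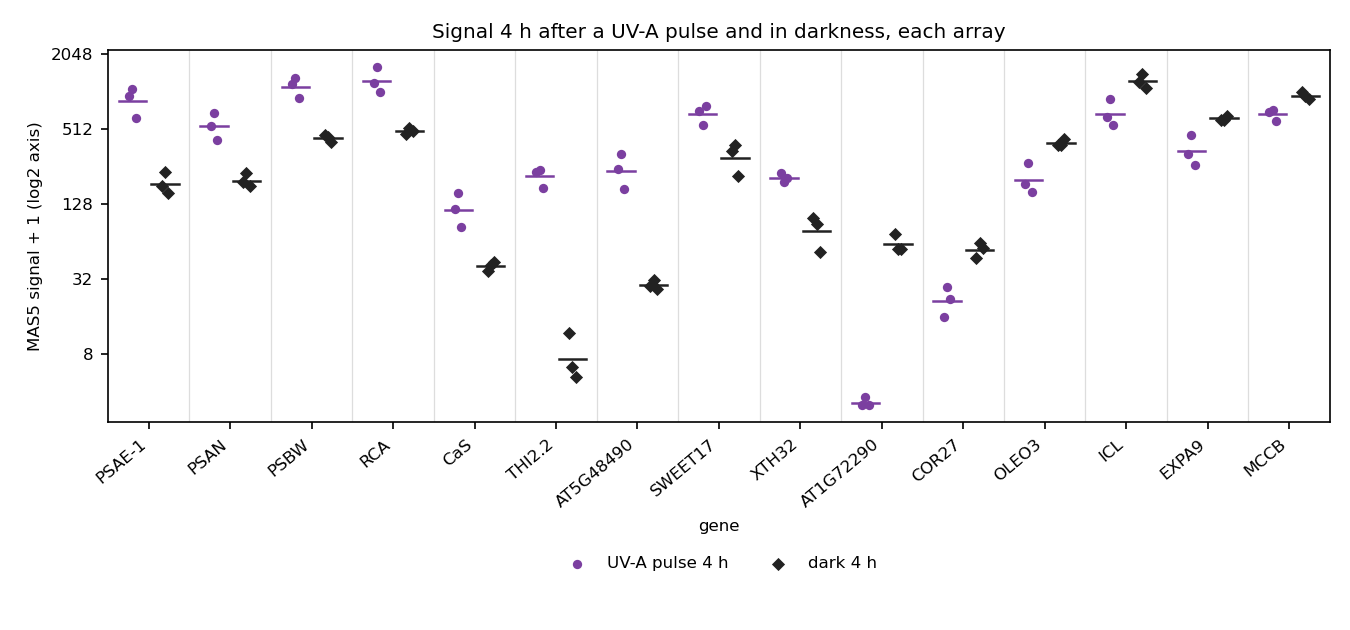
Signals of genes that rose or fell 4 h after the UV-A pulse, on a log axis. Each point is 1 array, the UV-A arrays stand left of the dark arrays for each gene, and the bars mark group means. For PSAE-1 the UV-A arrays lie between 627.8 and 1075.1 and the dark arrays between 155.1 and 228.0; for OLEO3 the UV-A arrays lie between 157.3 and 273.2 and the dark arrays between 378.4 and 424.0.

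RCA (AT2G39730), Rubisco activase, which keeps the carbon-fixing enzyme active, rose to 1189.8, 1597.7 and 1020.3 after UV-A, against 469.2, 515.0 and 490.1 in darkness (1.34 ± 0.24 SE, adjusted p = 0.00027). The other measured Calvin cycle genes, SBPASE and PRK, had differences of 0.48 and -0.11 and were not called. CaS (AT5G23060), a calcium-sensing protein of the thylakoids, rose to 115.0, 155.5 and 83.1 after UV-A, against 35.7, 40.0 and 42.7 in darkness (1.51 ± 0.23 SE, adjusted p = 2.56e-05). Both genes showed the order of arrays seen in the photosystem genes, with UV-A replicate 2 highest and UV-A replicate 3 lowest.

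Among 5 measured genes of the light-harvesting antenna list, 2 rose and none fell, with a median of 0.743. The list also holds LIL3:1 and LIL3:2, which are counted again under chlorophyll and tetrapyrrole synthesis. Neither was called, and the list's median and its lowest difference, -0.89, are their values. LHCB4.1 (AT5G01530) and LHCB4.2 (AT3G08940) encode forms of CP29, a minor antenna protein of photosystem II. LHCB4.1 had 1036.1, 965.5 and 732.4 after UV-A and 470.9, 531.8 and 365.4 in darkness, groups that did not overlap. Its rise of 1.00 (adjusted p = 0.0447) was lost without 5 of the 6 arrays, all but UV-A replicate 3 (0.0568 to 0.211). LHCB4.2 had 694.9, 909.4 and 512.2 after UV-A and 336.6, 430.5 and 355.5 in darkness. Its rise of 0.88 (adjusted p = 0.0371) was lost without dark replicate 1 (0.149), UV-A replicate 1 (0.0933), UV-A replicate 2 (0.234) or dark replicate 3 (0.121). Another CP29 gene, LHCB4.3, had a difference of -0.10 and was not called.

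UV-A replicate 3 was the lowest of the 3 UV-A arrays in all 14 measured genes of the photosystem, antenna and Calvin cycle lists, and UV-A replicate 2 was the highest in 12 of them. The summed signal of the 6 photosystem genes was 3801.7, 4746.4 and 2934.6 in the UV-A arrays and 1433.9, 1602.3 and 1372.1 in the dark arrays. UV-A replicate 2 was also the highest UV-A array in 211 of the 402 called rises, against 122 for replicate 3 and 69 for replicate 1. Among the 340 called falls the highest UV-A array was replicate 1 in 127, replicate 2 in 107 and replicate 3 in 106. The order was not counted over all tested probe sets, so nothing is read from these counts. What sets the order of the UV-A arrays in the photosynthesis genes was not tested.

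Other lists of plastid genes had no calls. None of 65 measured genes encoded in the plastid genome passed the test in either direction, with a median of -0.135, and none of 10 measured genes of chlorophyll and tetrapyrrole synthesis did, with a median of 0.372. PORB (AT4G27440), a protochlorophyllide reductase that needs light to act, had 1156.1, 1326.5 and 841.7 after UV-A and 1027.8, 1134.7 and 870.1 in darkness, with overlapping groups (log2 difference 0.12). HEME2 and HEME1, of the shared path to haem and chlorophyll, had differences of 0.71 and 0.77 with adjusted p-values of 0.0547 and 0.0638.

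**Figure D2:**
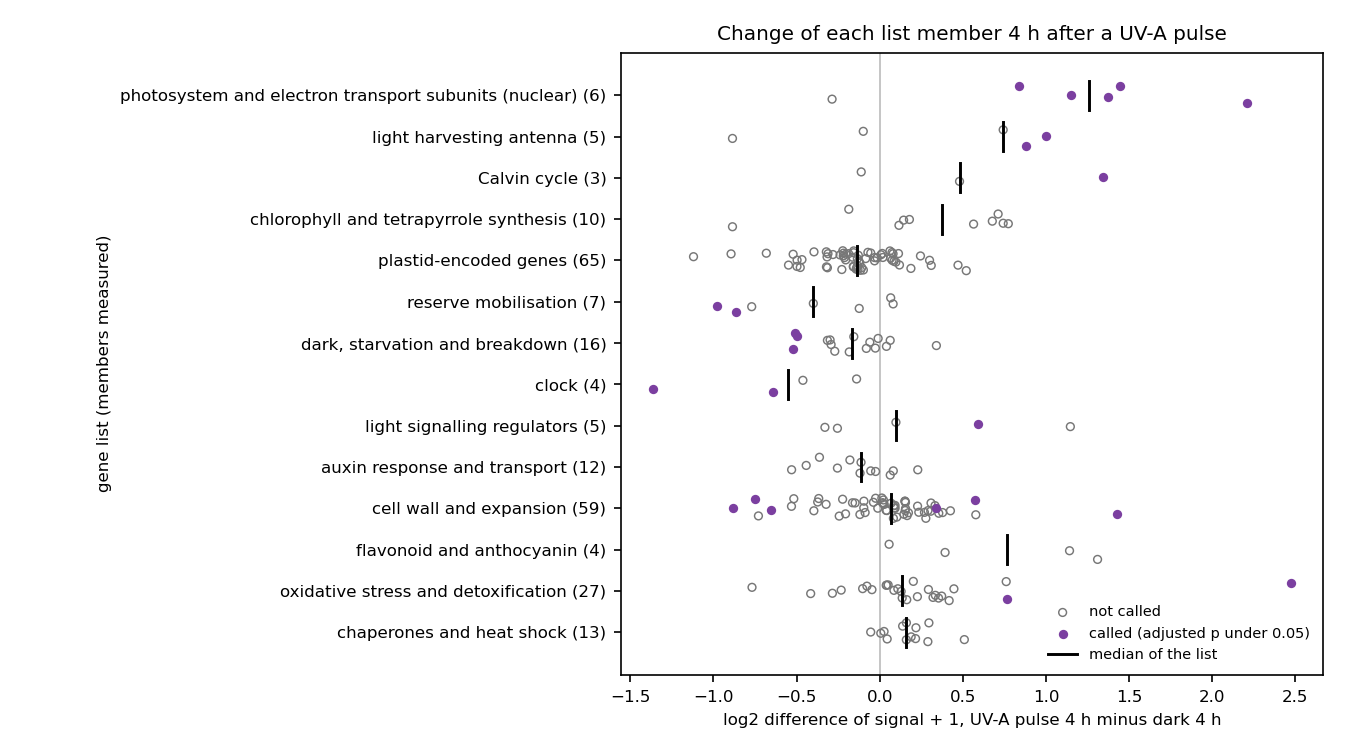
Log2 difference, UV-A pulse minus dark at 4 h, of every measured member of 14 gene lists. Filled points passed an adjusted p of 0.05, open points did not, and the vertical bar is the list's median; 5 of 6 photosystem genes lie to the right as filled points, while all 65 plastid-encoded genes are open.

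Outside photosynthesis, the largest rise belonged to THI2.2 (AT5G36910), a thionin, one of a family of small antimicrobial peptides. It had signals of 230.9, 238.8 and 172.0 after UV-A and 10.7, 5.3 and 4.2 in darkness (4.87 ± 0.62 SE, adjusted p = 1.13e-06). The dark signals lie well under the level of the filter, so the size is uncertain, and with 16 in place of 1 added before the logarithm it was 3.34. AT5G48490, a protein-coding gene with no further name in the tables used, had 243.0, 323.3 and 167.1 after UV-A and 27.1, 30.5 and 25.7 in darkness (3.05 ± 0.26 SE, adjusted p = 9.91e-11). The largest rises and falls were ranked only among called genes whose UV-A and dark arrays do not overlap. Separation of the arrays in such genes is therefore a condition of their naming and adds no support.

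MSRB6 (AT4G04840), an enzyme that reduces oxidised methionine in proteins, had 179.2, 152.0 and 212.9 after UV-A and 41.4, 24.8 and 30.4 in darkness (2.47 ± 0.21 SE, adjusted p = 5.8e-11). AT1G13930 had 869.1, 712.3 and 1181.8 after UV-A and 239.0, 282.5 and 208.2 in darkness (1.90 ± 0.20 SE, adjusted p = 1.25e-08). In both genes UV-A replicate 3 was the highest array and UV-A replicate 2 the lowest of the UV-A arrays, the reverse of the photosystem genes. AT3G57020 rose by 1.65 and AT1G73650 by 1.54 with the same order of arrays, and AT1G74730 rose by 1.66. Of the 27 measured genes of oxidative stress and detoxification, 2 rose and none fell, with a median of 0.135. The other rise was that of TRXF2 (AT5G16400), a plastid thioredoxin, by 0.76 (adjusted p = 0.0294), which was lost without UV-A replicate 1 (0.0579), UV-A replicate 2 (0.27), dark replicate 2 (0.0589) or dark replicate 3 (0.187).

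SWEET17 (AT4G15920), a fructose transporter of the vacuolar membrane, rose to 717.1, 546.1 and 781.5 after UV-A, against 336.3, 379.2 and 213.3 in darkness (1.16 ± 0.19 SE, adjusted p = 5.94e-05). It was the sole call among 16 measured genes of starch and sugar metabolism, whose median was 0.125. UGT88A1 and UGT74D1, both UDP-glucosyltransferases, rose by 1.13 (adjusted p = 0.00845) and 0.65 (adjusted p = 0.0149) among 32 measured members of that family, of which none fell. The first call was lost without UV-A replicate 2 (0.0735), and the second without dark replicate 1 (0.127) or UV-A replicate 3 (0.113). AT3G53250, which RefSeq also lists as SAUR57, a small auxin upregulated RNA, rose to 86.4, 70.8 and 66.9 after UV-A, against 19.8, 17 and 23.8 in darkness (1.84 ± 0.28 SE, adjusted p = 3.15e-05).

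The remaining rises among the largest were dim in darkness and rested on single arrays. AT3G48420 rose by 2.15, a call lost without UV-A replicate 2 (0.133) or dark replicate 3 (0.163). AT5G59250 rose by 1.84, a call lost without UV-A replicate 1 (0.0668) or UV-A replicate 2 (0.0734). AT3G18170 rose by 2.06 and AT3G44430 by 1.62, and each call was lost without any one of 4 of the 6 arrays (0.0887 to 0.142 for the first, 0.0724 to 0.182 for the second). With 16 added before the logarithm these 4 differences were 1.14, 0.90, 0.68 and 0.95. CCR2 (AT1G80820), a cinnamoyl-CoA reductase of lignin synthesis, had 24.1, 13.3 and 24.9 after UV-A and 7.7, 4.0 and 12.0 in darkness, all dim. Its rise of 1.35 (adjusted p = 0.0434) was the sole call among 8 measured phenylpropanoid genes, and it was lost without any one of 4 arrays (0.101 to 0.265).

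Of 11 measured beta-glucosidase genes, BGLU45 (AT1G61810) rose by 0.82 at dim signals, with 29.3, 22.3 and 25 after UV-A and 11.8, 13 and 17.6 in darkness, and BGLU16 (AT3G60130) fell by 0.40. The first call was lost without dark replicate 1 (0.11), UV-A replicate 1 (0.0898) or dark replicate 2 (0.0672), and the second without UV-A replicate 2 (0.182) or dark replicate 3 (0.0986).

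No rise or fall was called among 13 measured chaperone and heat shock genes (median 0.160), 12 rapid stress regulators (median 0.022), 13 cytochrome P450 genes (median -0.107), 5 histone and cell cycle genes (median -0.035) or 2 DNA repair genes. A p above the threshold does not show that these genes stayed level.

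The largest fall was that of AT1G72290, with signals of 2.1, 2.6 and 2.1 after UV-A and 72.1, 54.5 and 54.6 in darkness (log2 difference -4.22 ± 0.24 SE, adjusted p = 1.05e-15). The 3 UV-A signals are far under the level of the filter, and with 16 added before the logarithm the difference was -2.06. AT2G19970 had 21.9, 5.3 and 6.4 after UV-A and 37.7, 41.9 and 54.0 in darkness (-2.14), and AT1G11210 had 14.9, 18.7 and 27.5 after UV-A and 79.7, 82.9 and 51.2 in darkness (-1.77, adjusted p = 0.00171). Both dim genes were ranked among those without overlap, and UV-A replicate 1 of AT2G19970 stood well above the other UV-A arrays. Among brighter genes, AT1G19530 fell to 829.3, 607.2 and 588.0 after UV-A, against 1489.2, 1237.3 and 1342.7 in darkness (-1.02 ± 0.15 SE, adjusted p = 1.48e-05). AT5G02580 fell to 123.9, 120.2 and 103.1 after UV-A, against 235.2, 217.2 and 311.4 in darkness (-1.12, adjusted p = 0.000138). AT4G32340 fell to 47.5, 82.6 and 49.0 after UV-A, against 124.1, 153.5 and 140.4 in darkness (-1.25), a call lost without UV-A replicate 1 (0.0533). All UV-A arrays of these genes were below all dark arrays, which the ranking of the largest falls required.

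The other large falls were dim after UV-A. AT4G33980 had 18.8, 17.6 and 17 after UV-A and 39.7, 36.5 and 45.3 in darkness (-1.14, adjusted p = 0.000488). AT1G66460 fell by 1.18 (adjusted p = 0.00329) and AT5G60190 by 1.09 (adjusted p = 0.00269). These calls passed without any one of the 6 arrays. CXE20 (AT5G62180), a carboxyesterase, fell by 1.34, and AT1G74490 differed by -2.09. The call of CXE20 was lost without any one of 4 arrays (0.0666 to 0.246), and that of AT1G74490 without any one of 5, all but dark replicate 2 (0.0508 to 0.196).

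Of 7 measured genes of seed reserve mobilisation, 2 fell and none rose, with a median of -0.40. OLEO3 (AT5G51210), an oleosin that coats oil bodies, had 182.6, 273.2 and 157.3 after UV-A and 378.4, 379.3 and 424.0 in darkness (-0.98 ± 0.18 SE, adjusted p = 0.000374). ICL (AT3G21720), isocitrate lyase of the glyoxylate cycle, by which seedlings turn stored fat into sugar, had 641.4, 888.9 and 547.0 after UV-A and 1219.0, 1422.9 and 1089.5 in darkness. All UV-A arrays were below all dark arrays in both genes, and UV-A replicate 2 came nearest to them. The fall of ICL, by 0.87 (adjusted p = 0.0251), was lost without dark replicate 1 (0.0728), UV-A replicate 1 (0.0856), UV-A replicate 3 (0.137) or dark replicate 2 (0.121).

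Both subunits of methylcrotonyl-CoA carboxylase, an enzyme of leucine breakdown, a path that plants raise in darkness and sugar starvation, fell. Of 16 measured genes of dark, starvation and breakdown responses, 3 fell and none rose, with a median of -0.170. MCCB (AT4G34030), the beta subunit, had 703.2, 729.6 and 589.3 after UV-A and 1015.0, 942.6 and 887.3 in darkness (-0.50 ± 0.08 SE, adjusted p = 6.5e-05). MCCA (AT1G03090), the alpha subunit, had 657.4, 648.7 and 571.9 after UV-A and 921.6, 881.4 and 870.0 in darkness (-0.51, adjusted p = 0.00936), a call lost without UV-A replicate 3 (0.0609). The groups did not overlap in either gene. ETFQO (AT2G43400), which passes electrons from this breakdown to the respiratory chain, fell by 0.52 (adjusted p = 0.0451), but not without any one of 5 of the 6 arrays, all but dark replicate 1 (0.0503 to 0.258).

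Among 59 measured genes of the cell wall and of expansion, 3 rose and 3 fell, with a median of 0.068. XTH32 (AT2G36870), a xyloglucan endotransglucosylase, had 225.4, 190.4 and 205.4 after UV-A and 97.1, 87.9 and 51.7 in darkness (1.43 ± 0.25 SE, adjusted p = 0.000178). COB (AT5G60920), COBRA, a protein needed for oriented cell expansion, had 804.9, 817.3 and 750.2 after UV-A and 494.9, 576.2 and 525.8 in darkness (0.57 ± 0.09 SE, adjusted p = 2.35e-05). Both rose with no overlap between groups, and dark replicate 3 was the lowest array for XTH32. The endoglucanase gene GH9B7 rose by 0.34, a call lost without dark replicate 1 (0.224), UV-A replicate 2 (0.0925) or UV-A replicate 3 (0.0881), and with arrays centred on their medians (0.069).

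EXPA9 (AT5G02260), an expansin that loosens walls, fell to 321.5, 457.3 and 260.0 after UV-A, against 608.0, 607.5 and 651.6 in darkness (-0.88 ± 0.16 SE, adjusted p = 0.000341). TBL39 (AT2G42570), of a family of wall polysaccharide acetyltransferases, fell to 141.9, 151.0 and 124.3 after UV-A, against 221.9, 215.3 and 220.0 in darkness (-0.66, adjusted p = 3.93e-05). XTH33 (AT1G10550), of the same family as XTH32, fell by 0.75, a call lost without UV-A replicate 2 (0.0556) or dark replicate 2 (0.0694). XTH32 and XTH33, of 1 enzyme family, moved in opposite directions.

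Of 4 measured clock genes 2 fell and none rose. GI (AT1G22770), GIGANTEA, a large clock and flowering protein, had 98.8, 77 and 114.4 after UV-A and 153.2, 143.4 and 152.2 in darkness (-0.64 ± 0.17 SE, adjusted p = 0.0147). The groups did not overlap, but the call was lost without dark replicate 1 (0.0611), UV-A replicate 2 (0.147) or dark replicate 3 (0.0577). COR27 (AT5G42900), a light-regulated repressor linked to the clock, had 14.8, 26.4 and 21.2 after UV-A and 46, 61.0 and 55.3 in darkness (-1.36 ± 0.34 SE, adjusted p = 0.0102), a call lost without UV-A replicate 1 (0.0806) or dark replicate 2 (0.052). Its UV-A signals lie at or under the level of the filter.

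Among 5 measured regulators of light signalling, AFR (AT2G24540), an F-box protein of the far-red response, was the sole call. It had 45.3, 50.4 and 63.5 after UV-A and 34.7, 37.9 and 31.3 in darkness (0.59, adjusted p = 0.0253), and the call was lost without 4 of the 6 arrays, all but UV-A replicate 1 and dark replicate 2 (0.0534 to 0.162). HYH (AT3G17609), the homologue of HY5, had 10.7, 10.1 and 12.7 after UV-A and 9.8, 5.9 and 1.2 in darkness, all dim (1.15, adjusted p = 0.0753). EIN3 (AT3G20770), a transcription factor of the ethylene response, fell to 706.1, 631.8 and 585.3 after UV-A, against 772.5, 819.4 and 844.0 in darkness (-0.34, adjusted p = 0.0204). That call, 1 among 5 measured hormone genes, was lost without UV-A replicate 2 (0.068), UV-A replicate 3 (0.126), dark replicate 2 (0.0684) or dark replicate 3 (0.102). No gene passed among 12 measured genes of auxin response and transport (median -0.116) or among 4 of flavonoid synthesis (median 0.767). IAA29 (AT4G32280), an early auxin response repressor, had 71.8, 115.7 and 53.5 after UV-A and 105.5, 103.9 and 123.8 in darkness, with overlapping groups (-0.53, adjusted p = 0.0774). CHIL, a chalcone isomerase-like protein, had a difference of 1.31 (adjusted p = 0.0831) at dim signals.

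The effect of the UV-A pulse was next set against that of a red pulse harvested at the same time, which asks how far the wavelength of a brief pulse mattered at 4 h. Fluence and pulse length also differed between these pulses, so wavelength and dose cannot be told apart. Only 6 of the 15777 probe sets (0.038%) differed between the pulses, 4 higher (0.0254%) and 2 lower (0.0127%) after UV-A, and 747 had an unadjusted p under 0.05. Arrays of the same replicate number deviated together in these groups, and with the replicate number as a block 25 probe sets passed, 16 higher and 9 lower. The count was 11 without UV-A replicate 1 and 3 without UV-A replicate 3. The comparisons of both pulses with darkness share the same dark arrays, so their values are given side by side only: 742 probe sets passed for UV-A, and 430 (2.73%) for the red pulse, 285 higher (1.81%) and 145 lower (0.919%).

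MSRB6 was higher after UV-A, with 179.2, 152.0 and 212.9, than after the red pulse, with 59.8, 59.8 and 55.1 (1.61 ± 0.21 SE, adjusted p = 1.51e-05). Every UV-A array stood above every red-pulse array, and the call passed under all 15 alternatives. AT1G13930, with 869.1, 712.3 and 1181.8 after UV-A and 511.8, 317.5 and 485.6 after the red pulse (1.07, adjusted p = 0.0115), did not pass without red pulse replicate 2 (0.338) or UV-A replicate 3 (0.227). The other 4 called probe sets are not paired with a gene in the tables used.

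Of 64 genes given a test of UV-A against darkness, 45 had a 95% confidence interval between the pulses that holds 0. The interval leaves out 0 in 19, among them the 2 called genes. These intervals are not adjusted for the number of genes, and 747 of all 15777 probe sets had an unadjusted p under 0.05. Many of the 64 were chosen by their difference between UV-A and darkness, which uses the same UV-A arrays. Nothing is therefore read from the count. A p that misses the threshold does not show that the pulses act alike. PSAE-1 had 940.0, 1075.1 and 627.8 after UV-A and 967.6, 962.0 and 987.3 after the red pulse (-0.18, 95% confidence interval -0.92 to 0.56). THI2.2 had 230.9, 238.8 and 172.0 after UV-A and 262.9, 236.3 and 228.4 after the red pulse (-0.19, interval -1.45 to 1.06). AT1G72290 had 2.1, 2.6 and 2.1 after UV-A and 2.0, 2.3 and 1.4 after the red pulse (0.18, interval -0.31 to 0.67). In these 3 genes the groups overlapped, and in PSAE-1 the red-pulse arrays lay closer together than the UV-A arrays. For OLEO3 the difference was 0.19 (interval -0.17 to 0.55), for EXPA9 0.05 (interval -0.27 to 0.37), and for MCCB -0.12 (interval -0.28 to 0.04). Intervals that leave out 0 without a call were those of AT1G73650 at 0.84 (0.46 to 1.22), AT3G57020 at 1.03 (0.57 to 1.5), AT1G19530 at -0.60 (-0.90 to -0.29) and AT1G69570 at -0.48 (-0.76 to -0.20), among others.

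GI was lower after UV-A, with 98.8, 77 and 114.4, than after the red pulse, with 148.2, 170.4 and 147.2, and the groups did not overlap. The difference of -0.69 (interval -1.03 to -0.36) had an adjusted p of 0.148 without the replicate block and 0.0138 with it. The block in the fit over all groups was the sole one of 15 alternatives that called it.

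**Figure D3:**
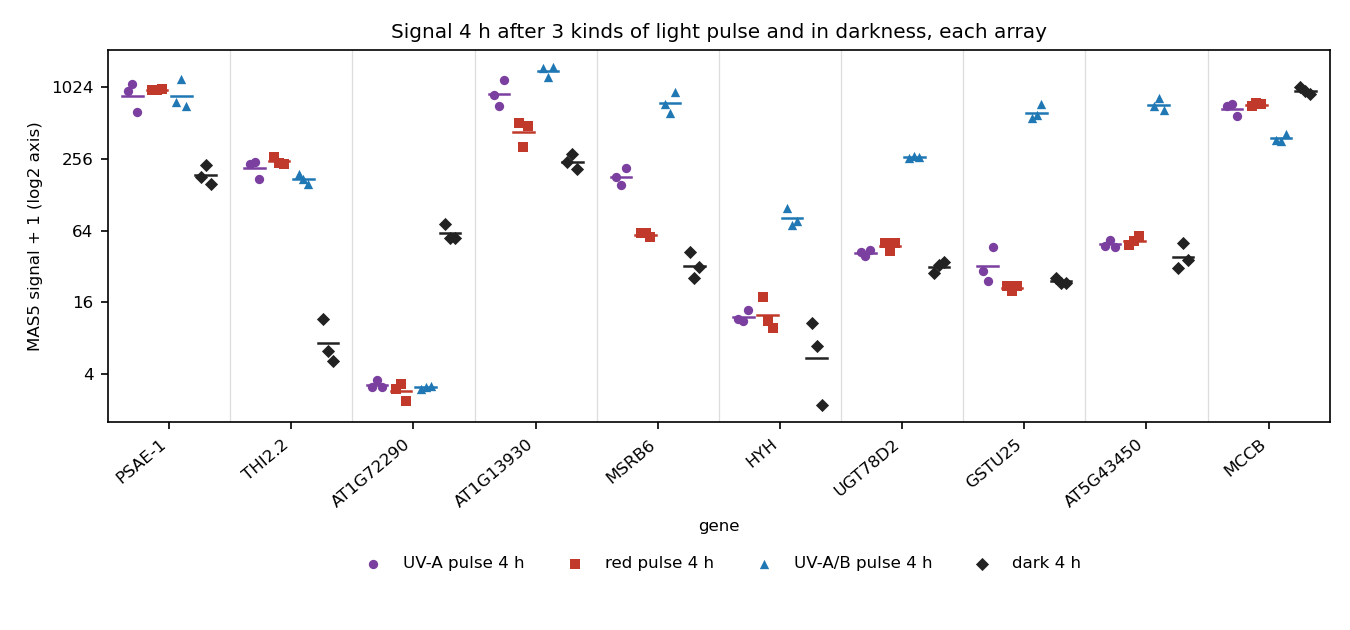
Signals of 10 genes 4 h after the UV-A pulse, the red pulse and the UV-A/B pulse, and in darkness, on a log axis with 1 point per array and a bar at each group mean. MSRB6 stands at 152.0 to 212.9 after UV-A, at 55.1 to 59.8 after the red pulse, at 613.7 to 919.5 after UV-A/B and at 24.8 to 41.4 in darkness, whereas PSAE-1 is about as high after each of the 3 pulses.

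Against the UV-A/B pulse of the same harvest, many more probe sets differed: 1379 of 15777 (8.74%), 628 higher (3.98%) and 751 lower (4.76%) after UV-A. Of these, 205 were lower after UV-A by more than 1 on the log2 scale, and 49 higher by more than 1. Against the same dark arrays, 3527 probe sets passed for UV-A/B (22.4%), 1722 higher (10.9%) and 1805 lower (11.4%). Some of the genes named below as lower after UV-A are members of the detoxification, glycosyltransferase, flavonoid and light signalling lists. GI, also lower, is in the clock list. Some of those named as higher are members of the dark, starvation and breakdown list. Others named below, among them AT2G41730, AT5G43450, AT1G19530 and AT4G37295, are in none of the gene lists. The photosystem genes were not called in this comparison in either direction (0 of 6).

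GSTU25 (AT1G17180), a glutathione transferase, had 28.3, 23.3 and 45.5 after UV-A and 560.5, 590.5 and 730.8 after UV-A/B (-4.28, adjusted p = 4.21e-16). UGT84A1 (AT4G15480), a glucosyltransferase of hydroxycinnamic acids, had 2.2, 1.6 and 2.2 after UV-A and 116.3, 128.7 and 149.1 after UV-A/B (-5.46, adjusted p = 2.28e-08). GR1 (AT3G24170), a glutathione reductase, had 285.0, 238.1 and 359.4 after UV-A and 1216.8, 1344.3 and 1237.9 after UV-A/B (-2.12, adjusted p = 3.63e-16). The UV-A arrays of all 3 genes lay far closer to the dark arrays than to the UV-A/B arrays; the dark signals for GSTU25 were 24.7, 22.3 and 22.2 and for GR1 217.3, 240.9 and 231.7. Of 27 measured detoxification genes, 8 were lower, 2 were higher and 17 were not called between UV-A and UV-A/B.

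AT2G04050, also in the detoxification list, had 0.7, 0.6 and 0.5 after UV-A, against 81.5, 95.8 and 73.5 after UV-A/B (-5.72, a size that rests on signals near 0). AT2G41730 had 26.5, 22.2 and 26 after UV-A, against 621.7, 608.6 and 594.4 after UV-A/B (-4.56). AT5G43450 had 46.2, 52.8 and 46 after UV-A, against 707.7, 831.7 and 651.9 after UV-A/B (-3.89). None of these 3 genes was called between UV-A and darkness.

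In the flavonoid list, 2 of 4 measured genes were lower after UV-A than after UV-A/B. UGT78D2 (AT5G17050), a flavonoid 3-O-glucosyltransferase, had 41.2, 38.2 and 42.9 after UV-A, against 259.9, 267.8 and 263.5 after UV-A/B (-2.67, adjusted p = 4.42e-17). CHIL differed by -3.06. Of the 5 light signalling genes, 3 were lower after UV-A: HYH, with 10.7, 10.1 and 12.7 after UV-A and 98.5, 69.9 and 75.3 after UV-A/B (-2.75, adjusted p = 1.26e-06), AFR (-1.22) and AT3G52740 (-3.04, at signals of 3.7, 1.1 and 1.1 after UV-A). In HYH the UV-A arrays were close to the dark arrays and the UV-A/B arrays were far above both.

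MSRB6 and AT1G19530 lay between darkness and UV-A/B. MSRB6 had 179.2, 152.0 and 212.9 after UV-A, 740.5, 613.7 and 919.5 after UV-A/B and 41.4, 24.8 and 30.4 in darkness (UV-A minus UV-A/B -2.05, adjusted p = 2.01e-09). AT1G19530 had 829.3, 607.2 and 588.0 after UV-A, 341.8, 210.3 and 367.3 after UV-A/B and 1489.2, 1237.3 and 1342.7 in darkness (UV-A minus UV-A/B 1.16). AT3G57020 and AT1G73650 followed MSRB6, with differences of -2.37 and -1.77 between UV-A and UV-A/B. In each of these 4 genes the 3 groups did not overlap. GI had the UV-A arrays lowest, with 98.8, 77 and 114.4, against 200.2, 169.0 and 203.4 after UV-A/B (-0.99) and 153.2, 143.4 and 152.2 in darkness.

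Of the 16 genes of dark, starvation and breakdown responses, 6 were higher after UV-A than after UV-A/B and none lower. They were MCCB, with 703.2, 729.6 and 589.3 after UV-A and 369.1, 357.4 and 413.7 after UV-A/B (0.82, adjusted p = 6.94e-10), MCCA (0.90), IVD (0.81), also of leucine breakdown, and the autophagy genes ATG8F (0.52), APG8H (0.43) and ATG8C (0.31). IVD (AT3G45300), isovaleryl-CoA dehydrogenase, had 798.5, 665.1 and 680.9 after UV-A and 430.5, 351.3 and 439.2 after UV-A/B. The largest named excesses of UV-A over UV-A/B, AT4G37295 (1.81) and AT2G14255 (1.77), came from dim signals and were lost without UV-A/B replicate 3 (0.115) for the first, and without UV-A replicate 1 (0.0773) or UV-A/B replicate 1 (0.0765) for the second.

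The UV-A pulse effect at 4 h was then compared with that at 45 min, harvested after a pulse of the same 5 min and 40 min of darkness, to ask which changes were early and which late. The 2 harvests have their own dark arrays and share none. At 45 min, 899 probe sets passed (5.7%), 584 higher (3.7%) and 315 lower (2%) after UV-A. The effects themselves differed between 4 h and 45 min in 658 probe sets (4.17%), 272 more positive (1.72%) and 386 more negative (2.45%) at 4 h. Between the dark groups of both harvests, 5 probe sets passed (0.0317%).

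The called probe sets of the harvests were then set side by side. Of the 402 rises at 4 h, 81 were also called higher at 45 min, which is 20.1% of the 4 h rises and 13.9% of the 584 rises at 45 min (3.7% of all probe sets were called higher there), and 5 were called lower there. Of the 340 falls at 4 h, 20 were also called lower at 45 min (5.88% of the 4 h falls and 6.35% of the 315 falls at 45 min, against 2% of all probe sets), and 18 were called higher there (5.29% of the 4 h falls). In all 23 probe sets called in opposite directions the difference of the effects was called too. That largely follows from the opposite signs of effects that were each called, so it adds no separate evidence.

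The photosystem genes had their calls at the 4 h harvest. None of the 6 was called at 45 min, and in 3 the 4 h effect was called larger. PSAE-1 had 940.0, 1075.1 and 627.8 after UV-A and 178.0, 228.0 and 155.1 in darkness at 4 h, while at 45 min it had 192.3, 199.1 and 66.6 after UV-A and 135.3, 172.2 and 130.8 in darkness (difference of effects 2.30, n = 3 in each group). The groups were apart at 4 h and overlapped at 45 min. For PSAN the difference of effects was 1.31, lost without UV-A 45 min replicate 3 (0.0573), and for PSBW 1.16, lost without UV-A 4 h replicate 2 (0.0598) or UV-A 45 min replicate 3 (0.0857). AT5G48490 had 20, 16.7 and 13.6 after UV-A and 22.2, 19.5 and 23.2 in darkness at 45 min, against its rise to 167.1 and above at 4 h (difference of effects 3.41).

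HYH, UGT78D2 and AFR were called higher after UV-A at 45 min, and at 4 h their signals lay much closer to the dark arrays of that harvest. HYH had 10.7, 10.1 and 12.7 after UV-A at 4 h, and 39.5, 24.1 and 26.3 after UV-A against 3.3, 1.4 and 1.1 in darkness at 45 min (difference of effects -2.29). UGT78D2 had 41.2, 38.2 and 42.9 after UV-A at 4 h, and 185.0, 185.8 and 155.5 after UV-A against 34.5, 36.2 and 27.1 in darkness at 45 min (-2.01). AFR had 45.3, 50.4 and 63.5 after UV-A at 4 h, and 219.3, 243.9 and 168.0 after UV-A against 38.4, 45.2 and 29.8 in darkness at 45 min (-1.86). At 45 min every UV-A array of these genes was far above every dark array. The dark signals of HYH are under the level of the filter, so the size of its effect is uncertain.

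IAA29 ran the other way, with 24.3, 27.1 and 30.4 after UV-A and 90.4, 118.8 and 108.3 in darkness at 45 min (-1.91, adjusted p = 8.58e-11), against overlapping groups at 4 h (difference of effects 1.38). Of 12 measured auxin genes, 4 were called lower at 45 min, IAA29, GH3.3, HAT2 and WAG2, and none at 4 h. The difference of effects was called in 1 of the 12, IAA29, and the other 11 were not called. Of the 59 wall genes, 7 were called lower at 45 min and none higher, among them XTH16, EXLA2 and EXPB1, whose effects were more positive at 4 h by 1.23, 1.15 and 0.77.

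Chaperone and heat shock genes had their calls at 45 min, and none at 4 h. At 45 min 6 of 13 chaperone genes were higher after UV-A and none lower, and in 4 the effect was called smaller at 4 h. Hop3 (AT4G12400), a co-chaperone that links HSP70 and HSP90, had 33.2, 32.7 and 13.5 after UV-A and 19.6, 21.1 and 19.1 in darkness at 4 h, and 188.5, 157.1 and 61.7 after UV-A and 24.5, 18.4 and 13.2 in darkness at 45 min (difference of effects -2.40). AT5G48570, which RefSeq also lists as FKBP65 and ROF2, a peptidyl-prolyl isomerase, had 272.7, 217.5 and 53.3 after UV-A and 24.5, 23.8 and 11.4 in darkness at 45 min (difference of effects -2.68, lost without 5 of the 12 arrays, 0.0736 to 0.116). In both genes UV-A 45 min replicate 3 was the lowest of its group yet above all dark arrays.

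GI changed direction between the harvests: it was lower after UV-A at 4 h (-0.64) and higher at 45 min, with 322.5, 387.9 and 364.1 after UV-A against 68.5, 138.1 and 105.7 in darkness (1.83, adjusted p = 6.09e-11). The difference of its effects was -2.47 and passed without any one of the 12 arrays. The 4 h fall itself was lost without dark replicate 1 (0.0611), UV-A replicate 2 (0.147) or dark replicate 3 (0.0577). GI is 1 of 7 singly named genes among the 23 probe sets with opposite calls. UPB1 (AT2G47270), a transcription factor of the bHLH family, had 166.6, 156.1 and 112.4 after UV-A and 266.2, 273.2 and 203.3 in darkness at 4 h, and 677.1, 385.9 and 421.8 after UV-A and 246.1, 187.7 and 174.0 in darkness at 45 min (difference of effects -2.03). Its fall at 4 h was lost without dark replicate 1 (0.113), UV-A replicate 3 (0.155) or dark replicate 2 (0.111). TRM28 (AT5G03670), AT3G04010 and AT1G69570 were also lower at 4 h and higher at 45 min, with differences of effects of -1.56, -1.72 and -1.79. The 4 h fall of AT3G04010 was lost without UV-A replicate 2 (0.0642) or dark replicate 2 (0.0863), and that of AT1G69570 without UV-A replicate 3 (0.0734).

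AT3G53250 and AT4G33960 were higher at 4 h and lower at 45 min. AT3G53250 had 86.4, 70.8 and 66.9 after UV-A and 19.8, 17 and 23.8 in darkness at 4 h, and 7.5, 6.8 and 8.8 after UV-A and 17.1, 35.1 and 23.3 in darkness at 45 min (difference of effects 3.38). AT4G33960 had 270.7, 277.2 and 288.1 after UV-A and 210.7, 207.3 and 196.1 in darkness at 4 h, and 158.3, 147.2 and 162.6 after UV-A and 196.5, 214.9 and 210.1 in darkness at 45 min (difference of effects 0.85). In each gene and at each harvest the groups did not overlap. MSRB6 rose at both harvests and more at 4 h, with effects of 2.47 at 4 h and 1.22 at 45 min (difference 1.25). That difference was not called in the fit on the compared groups alone (0.127), nor with the replicate block added to it (0.0648).

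**Figure D4:**
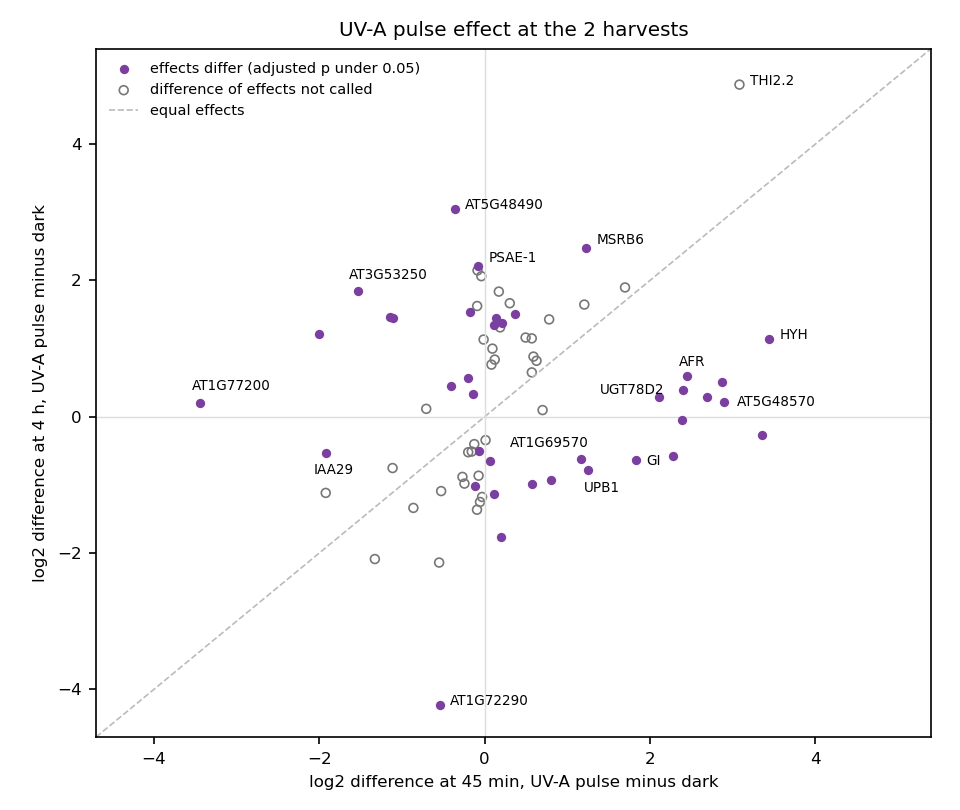
Log2 effect of the UV-A pulse at 4 h (vertical axis) against that at 45 min (horizontal axis) for the genes named in the text, each minus the dark group of its own harvest. Filled points have a called difference of effects, and the dashed line marks equal effects; GI lies at 1.83 on the horizontal and -0.64 on the vertical axis, and PSAE-1 near 0 on the horizontal and at 2.21 on the vertical axis.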

How the data were processed

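Total RNA was hybridised to ATH1 arrays. The deposited values are intensities, 1 linear signal per probe set and array, summarised with MAS5 per the submitters' processing notes; the version is not given in the sources used here. Zeros (72 in the 6 arrays) were kept. Log2(signal + 1) was taken with no further scaling. A probe set was tested if its signal exceeded the array's 40th percentile on 3 or more of the 48 arrays. The test was limma 3.58.1 (R 4.3.3 and the R package data.table, version 1.17.8): 1 mean per group over all 16 groups, empirical Bayes with a trend, 32 residual degrees of freedom. P-values were adjusted by Benjamini-Hochberg within each comparison, and called means an adjusted p under 0.05.

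Genes were named from GEO's platform table, symbols updated through RefSeq (TAIR10.1): 13513 probe sets pair with 1 gene, 503 with several and 8730 are not listed there. Lists count 1 probe set per gene, the brightest. Named genes were, per comparison, the largest called differences, the largest called members of each list and 6 fixed genes. For UV-A against dark, the largest rises and falls were ranked only among called probe sets whose UV-A and dark arrays do not overlap. TRM28, AT3G04010, UPB1, AT1G69570, AT4G33960, Hop3, AT2G20560, AT5G51440, COB, GH9B7, IVD, GR1, ATG8F, APG8H, ATG8C and the list members given for 45 min were named after their values were seen. Members and lists were chosen with earlier results of these data known.

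Same-numbered arrays of the UV-A and red-pulse groups deviated together (correlations of deviations 0.189, 0.205 and 0.202), as did those of UV-A and UV-A/B (0.218, 0.488 and 0.441). So did those of UV-A and dark at 45 min (0.122, 0.143 and 0.208) and at 4 h (0.082, 0.186 and 0.137). The numbers come from the array titles. On simulated data for UV-A against dark, 80% of 100 changes of 1 and 96% of 100 changes of 2 (log2) were recovered. There were 5 false among 181 calls over 15777 probe sets. The noise was drawn independently for each array, without the shared deviations of same-numbered arrays, so these rates describe a simpler setting. Array number limits the precision. Tables and figures used Python 3.11.15, pandas 2.3.3, numpy 2.4.6 and matplotlib 3.10.9. Alternatives were another pseudocount, filters, scalings, array weights, a replicate block, fits on the compared groups alone and leaving out each array.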

Additional observations from a re-analysis of the deposited data

Results flagged for a closer look

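The effect of the UV-A pulse against darkness differed between the 4 h and the 45 min harvest, by a test of that difference in limma's model with Benjamini-Hochberg adjustment, in 39 of 90 genes that the text, its figures or its tables name. It was more positive at 4 h in 17 and more negative at 4 h in 22. Over all tested probe sets the difference was called in 658 of 15777 (4.17%). The 90 genes include the largest called differences of this same comparison and genes named after their values were seen, so nothing is read from their count. The values below are effects at 4 h minus effects at 45 min on the log2 scale.

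Among genes of plastids and photosynthesis the difference was 2.30 for PSAE-1, 1.31 for PSAN, 1.23 for RCA, 1.16 for PSBW and 1.15 for CaS. Among wall genes it was 0.77 for COB, 0.48 for GH9B7 and -0.72 for TBL39. For regulators of light, clock and auxin responses it was 1.38 for IAA29, -2.47 for GI, -2.29 for HYH, -1.86 for AFR and -2.03 for UPB1. The flavonoid gene UGT78D2 had -2.01 and MSRB6 had 1.25, while MCCB of leucine breakdown had -0.43.

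Heat shock and co-chaperone genes had differences of -2.68 (AT5G48570), -2.40 (Hop3), -2.36 (AT5G51440) and -1.82 (AT2G20560). AT5G51440 was lost without 5 of the 12 arrays (0.0615 to 0.092).

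Of the other genes, those more positive at 4 h were AT1G77200 (3.65), AT5G48490 (3.41), AT3G53250 (3.38), AT5G14830 (3.22), AT5G45960 (2.60), AT4G03150 (2.56), AT1G73650 (1.72) and AT4G33960 (0.85). AT1G77200 had 67.7, 34.6 and 46.2 after UV-A and 40.1, 53.4 and 32.6 in darkness at 4 h, and 3.1, 4.4 and 4.6 after UV-A and 46, 52.0 and 62.5 in darkness at 45 min. With 16 added before the logarithm the difference of AT1G77200 was 1.95. The differences of AT5G14830, AT5G45960 and AT4G03150 rest on dim signals and were lost without 1 (dark 4 h replicate 1, 0.0734), 5 (0.0544 to 0.114) and 9 (0.053 to 0.169) of the 12 arrays.

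Those more negative at 4 h were AT1G72290 (-3.68), AT5G58750 (-3.63), AT5G15950 (-2.86), AT1G30070 (-2.44), AT1G11210 (-1.97), AT1G69570 (-1.79), AT3G04010 (-1.72), TRM28 (-1.56), AT4G33980 (-1.25), AT5G43450 (-1.13) and AT1G19530 (-0.91). With 16 in place of 1 added before the logarithm, the differences of AT1G72290 and AT5G58750 were -1.62 and -1.56, so their sizes are uncertain. AT5G15950 had 52.1, 41.4 and 39.8 after UV-A and 75.3, 73.3 and 53.4 in darkness at 4 h, and 314.0, 274.5 and 286.9 after UV-A and 78.8, 42.8 and 62.3 in darkness at 45 min.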

How the results depend on the processing

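The 742 calls of UV-A against dark became 1270 with array weights, 409 in a fit on these groups alone and 1326 with the replicate block. Same-numbered arrays of these groups deviated together weakly (correlations 0.082, 0.186 and 0.137), and differently numbered ones gave -0.149 to 0.013. The labels do not say whether a number marks a shared culture, so the main fit has no block. Leaving out 1 array gave 463 to 651 calls, 474 without dark replicate 1 and 463 without dark replicate 3. The pseudocount, the filters and the scalings gave 683 to 822. Against the red pulse the 6 calls became 16 with array weights, 25 with the replicate block, 1 in a fit on the groups alone, 1 in that fit with the block (an alternative chosen after seeing the data), and 3 to 11 without 1 array. Against UV-A/B the 1379 calls became 472 on the groups alone, where 22.9% were higher after UV-A in place of 45.5%, and 1012 to 1343 without 1 array; the paired block gave 1965. The 658 differences of effects became 1147 with the block, 362 on the groups alone, where 31.2% were more positive in place of 41.3%, and 492 to 645 without 1 array. With the block, and in the fit on the groups alone with the block, the differences of effects of THI2.2 (0.0433 and 0.0332), COR27 (0.044 and 0.00801) and PORB (0.0253 and 0.0152) were called. At 45 min the block, an alternative chosen after seeing the data, gave 1299 calls in place of 899.

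No called named difference changed sign, but 10 of the uncalled ones did, among them PORB and AT3G52740 against dark and PSAE-1, COR27, HYH and IAA29 against the red pulse. For UV-A against dark, 29 of 59 called genes stayed called under every alternative and 30 lost the call under at least 1. Against the red pulse 1 of 2 stayed called, against UV-A/B 19 of 24, and for the difference of effects 19 of 28. AT1G13930 against the red pulse had an adjusted p of 0.527 on the groups alone, and the difference of effects of HYH 0.209. Signals under about the 40th percentile of an array have no reliable size, and the 3 arrays per group limit the precision.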
